A study of Homo sapiens with 9 samples.

Results

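The 10 genes described here encode cell-surface molecules with which T cells receive costimulatory or inhibitory signals, and an adaptor protein that acts beneath some of them. They are CD2, CD5, CD6, CD28, CTLA4, ICOS, SLAMF6, SLAMF1, SH2D1A and CD96, and they were chosen by name from the 58096 gene identifiers of the deposited tables, of which 57492 matched GENCODE 29. SH2D1A is not a receptor: it encodes SAP, the cytoplasmic adaptor of the SLAM receptors. CTLA4, CD5, CD6 and CD96 are also known as inhibitory or dual-function receptors, so "costimulatory" is a loose name for the set.

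A T cell that recognises its antigen through the T cell receptor reads further signals from paired surface molecules. CD28 and ICOS bind ligands of the B7 family and add an activating signal, while CTLA4 competes for the ligands of CD28 and restrains the cell. CD2 binds CD58 and strengthens adhesion, CD5 and CD6 are scavenger-receptor-type proteins that tune signalling, SLAM receptors bind mostly themselves on neighbouring cells and signal through SAP, and CD96 binds PVR. Many of these molecules appear at defined stages of thymic maturation, and leukaemias of the T lineage keep them to differing degrees.

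The libraries were polyA+ RNA-seq libraries of ALL-SIL, an established human T cell acute lymphoblastic leukaemia (T-ALL) line in which the homeobox transcription factor gene TLX1 is active. The cells were electroporated with 1 of 3 siRNAs, small RNAs that direct the degradation of matching transcripts: 3 libraries were labelled TLX1 siRNA1, 3 TLX1 siRNA2 and 3 NTC siRNA, the comparison siRNA of the study. All 9 libraries therefore came from electroporated cells of a single line, and an untreated control was not analysed here. The labels name no siRNA sequence, dose or harvest time. Each label carries replicate numbers 1 to 3, but nothing says whether these were separate cultures. Unless said otherwise, replicate number was a term (block) of the test. The p-values then measure only the spread left between these libraries after label and replicate number, which may be technical.

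The mean of the knockdown target, TLX1, was not below NTC under either TLX1 siRNA label. TLX1 stood at 406, 457 and 387 CPM (counts of a gene scaled to a common library total) in libraries labelled siRNA1, at 198, 231 and 179 CPM in libraries labelled siRNA2, and at 184, 167 and 183 CPM in NTC libraries (replicates 1, 2 and 3). The log2 fold change was 1.22 (SE 0.08) for siRNA1 over NTC, with an adjusted p of 2.05e-10, and 0.18 (SE 0.08) for siRNA2 over NTC, with an adjusted p of 0.495. TLX1 was thus higher, not lower, in the libraries labelled siRNA1, and every direction given here is a direction by label, not by TLX1 knockdown. The depth was 58305492 to 99524663 counts in genes per library. The replicate 1 libraries of all 3 labels stood apart: on the first principal component, which held 35.3% of the variance, they lay at 18.9 to 19.9, against -12.0 to -8.24 for the other 6. TLX3, a relative of TLX1, had 54, 41 and 33 counts in the replicate 1 libraries of siRNA1, siRNA2 and NTC and 0 in the other 6, so calls are given with and without replicate 1 where they change. T-lineage transcripts were present: 12 of 12 listed markers, which include CD2 and CD5, exceeded 1 CPM on average. They summed to 4011 to 4227 CPM under siRNA1, 3968 to 4630 under siRNA2 and 4313 to 4436 under NTC. T cells share such markers, so they cannot tell ALL-SIL from another T-lineage line.

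Short stretches of reference sequence near the starts of these genes are shown because the promoters are where factors of the T lineage are known to act. RefSeq promoter windows (GRCh38.p14, the 250 bases before each RefSeq start) were found for 8 of the 10 genes, and CD5 and CD6 are named only. The windows were searched on both strands for a RUNX word (TGTGGT), an ETS word (AGGAAG), a homeobox word (TAATTG) and an E-box (CACGTG). The ETS word lay in 4 of 8 windows, close to the start in each case, against 28.7% of 35116 windows of the same length. The RUNX word lay in 2 of 8 windows, against 10.98% of all windows, the E-box in 1 of 8, against 6.35%, and the homeobox word in 0 of 8, against 6.70%. SH2D1A held none of the 4 words. A match is a run of letters, not a shown binding site. The matches follow, each with its flanks, 5′ to 3′ on the gene's strand, with the searched word in capitals; several lie in transcribed sequence of longer GENCODE transcripts.
CD2, chr1:116754384-116754413, plus strand, E-box beginning 34 bases before the start: tgtaaagagaggCACGTGgttaagctctcg
CD28, chr2:203706518-203706547, plus strand, RUNX word 109 bases before: gtcaggatgcctTGTGGTttgagtgccttg
CTLA4, chr2:203867729-203867758, plus strand, ETS word 30 bases before: ctaaacccacggCTTCCTttctcgtaaaac
ICOS, chr2:203936709-203936738, plus strand, ETS word 42 bases before: ccagaaaacccaCTTCCTttccagcaaata
SLAMF6, chr1:160523273-160523302, minus strand, ETS word 35 bases before: cacgcctctaagAGGAAGgggaagtctcag
SLAMF1, chr1:160647070-160647099, minus strand, ETS word 43 bases before: tcccagtgatacAGGAAGcgggttcaggaa
CD96, chr3:111542056-111542085, plus strand, RUNX word 129 bases before: actcagtcctgaACCACAttactttcctgt
CD96, chr3:111542125-111542154, plus strand, RUNX word 60 bases before: gacccaggcgtgTGTGGTagagttcgggtt
CTLA4 and ICOS held the ETS word as its reverse complement, as CD96 held the RUNX word farther from its start. The 4 genes with the ETS word included the 3 least abundant members and ICOS, one of the more abundant.

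The 3 genes that later passed a test, CD2 (chr1:116754385-116769228), CD28 (chr2:203706475-203738912) and SH2D1A (chrX:124227868-124373197), all lie on the plus strand (GRCh38, GENCODE 29). Several members are neighbours. CD28, CTLA4 and ICOS lie in this order on the plus strand of chromosome 2, with gaps of 129 kb and 62.8 kb between them. CD6 and CD5 lie 82.0 kb apart on chromosome 11, and SLAMF6 and SLAMF1 lie 84.8 kb apart on the minus strand of chromosome 1. SH2D1A on chromosome X overlaps 4 annotated genes, STAG2 on the same strand among them, and shares 89 bases of exon with 1 of the 4. A few of its reads therefore cannot be assigned with certainty. STAG2 itself had a log2 fold change of -0.11 for siRNA1 over NTC, with an adjusted p of 0.303.

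The cells carried these transcripts at very unequal levels. RPKM, the CPM divided by the exon length in kilobases, allows genes of different length to be compared. The length is that of all annotated exons merged, so the order depends on the annotation. In mean CPM, CD96 (307) stood above SH2D1A (165), CD6 (101) above ICOS (67.9) and SLAMF1 (0.225) above CTLA4 (0.163). RPKM put SH2D1A at 53.7 ± 10.2 and CD96 at 53.2 ± 5.05 (SD, n = 9 libraries). Both lay above 95% of the 18554 genes tested, at percentiles 95.7 and 95.6. SH2D1A exceeded CD96 in 5 of 9 libraries, so their order is not settled. CD5 followed at 45.7 ± 4.78 RPKM, below CD96 in 9 of 9 libraries although the ranges overlapped. ICOS stood at 25.7 ± 2.40 RPKM, CD6 at 16.9 ± 1.51, CD28 at 9.16 ± 1.64 and CD2 at 2.15 ± 0.694, and the ranges of neighbours in this stretch, from CD5 down to SLAMF6, did not overlap. CD2, a pan-T marker, was thus a moderate transcript here, at percentile 47.5. The lowest 3 members were SLAMF6 at 0.245 ± 0.0673 RPKM, CTLA4 at 0.0763 ± 0.0279 and SLAMF1 at 0.0527 ± 0.0197. CTLA4 exceeded SLAMF1 in 7 of 9 libraries, and their ranges overlapped. ICOS therefore exceeded CD28, and CTLA4 had 7 to 26 counts per library, although the 3 genes are neighbours.

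**Figure D1:**
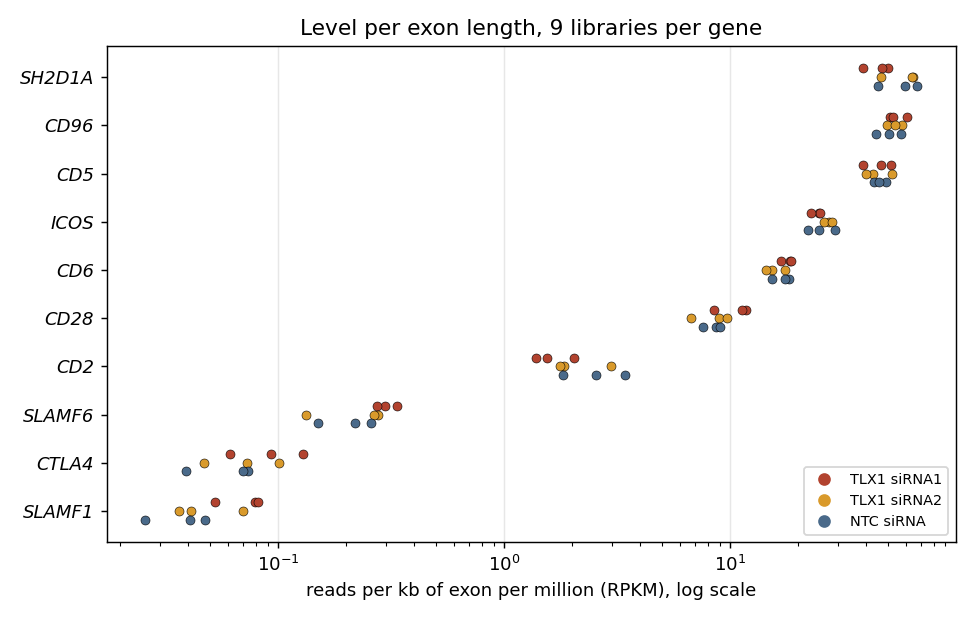
Level of each gene per exon length in the 9 libraries (RPKM, log axis), with 1 point per library, coloured by siRNA label and stacked as siRNA1, siRNA2 and NTC within a gene. SH2D1A, CD96 and CD5 formed the top group at 45.7 to 53.7 RPKM on average, and SLAMF6, CTLA4 and SLAMF1 lay below 1 RPKM.

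All 10 genes passed the filter on low counts. For 8 of them the filter level of about 0.12 CPM was exceeded in all 9 libraries. CTLA4 exceeded it in 3 siRNA1, 2 siRNA2 and 2 NTC libraries, and SLAMF1 in 3, 3 and 2. In libraries of bulk RNA, fewer cells with a transcript and less transcript per cell cannot be told apart.

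The first question was whether the libraries labelled siRNA1 differed from NTC libraries. CD28 was higher under siRNA1, and CD2 and SH2D1A were lower, while the other 7 members did not pass the test. These were 3 of 10 members at an adjusted p under 0.05 (edgeR quasi-likelihood, Benjamini-Hochberg over all genes, replicate number as a block), against 11.4% of all genes tested. By direction, 1 of 10 was higher, against 5.48% of genes, and 2 of 10 were lower, against 5.93%. The median log2 fold change was 0.10 over the members and 0.00 over all genes tested, and the fitted value was above 0 for 6 members and below 0 for 4. An unadjusted p under 0.05 was found for 5 of 10 members, against 23.9% of genes. For 7 of 10 members the 3 replicate numbers gave the same direction, against 45.9% of genes. Without the block 0 of 10 members passed, against 1.28% of genes, and without the replicate 1 libraries 1 of 10 passed, CD2, against 6.07% of genes. The share called was larger among better expressed genes. With at least 1 CPM in 3 libraries required, 3 of 7 members passed, against 2105 of 12808 genes (1034 higher and 1071 lower).

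**Figure D2:**
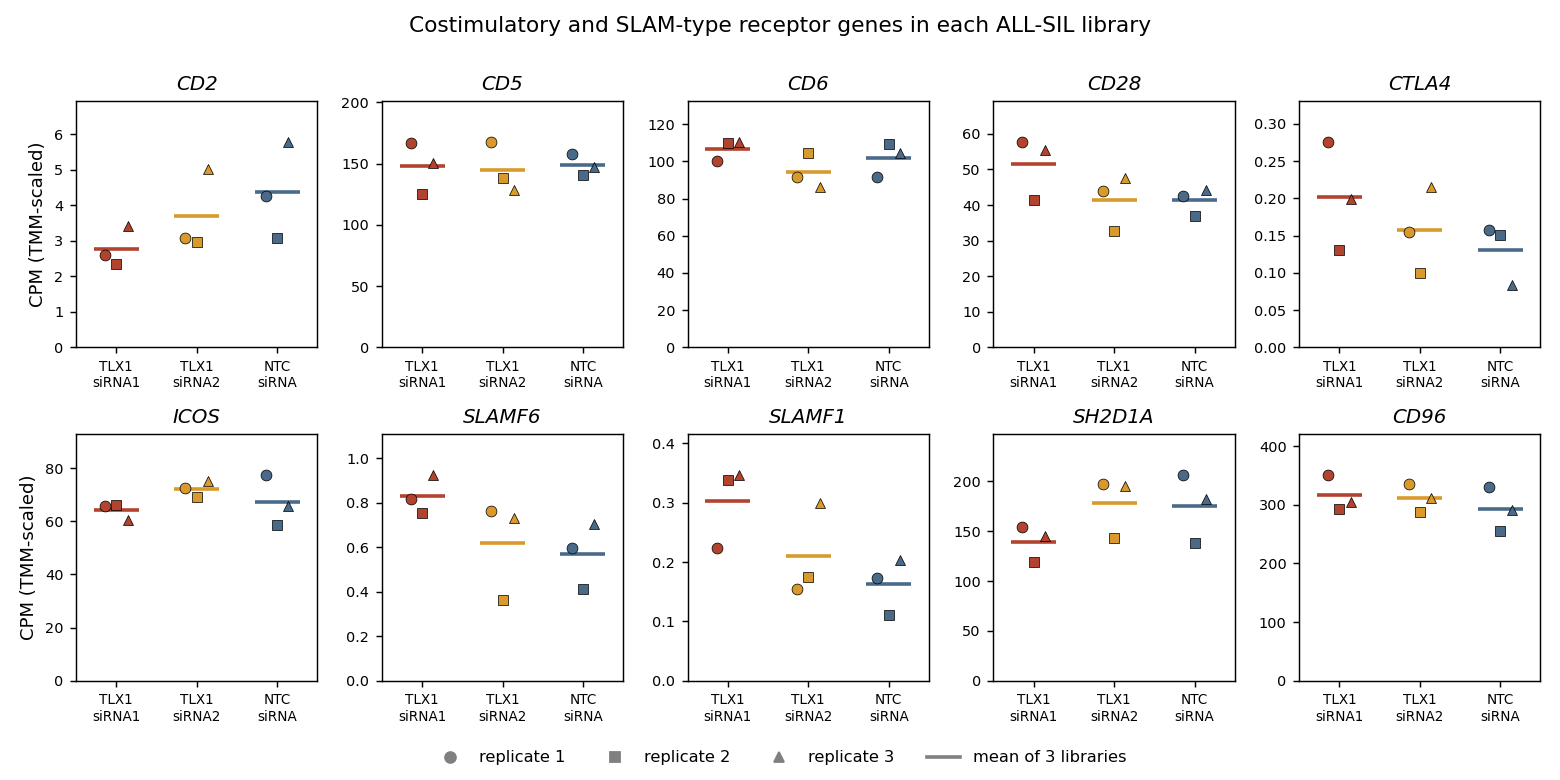
TMM-scaled CPM of the 10 genes in each library (linear axis from 0 for each gene), with siRNA1 on the left, siRNA2 in the middle and NTC on the right; marks show the replicate number and bars the mean of 3 libraries. CD28 and SH2D1A moved in opposite ways under siRNA1, and the replicate 2 library of each label was low for both.

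CD2, the adhesion receptor for CD58, had 2.59, 2.33 and 3.42 CPM under siRNA1 and 4.27, 3.07 and 5.79 CPM under NTC. The ranges of the labels overlapped, but siRNA1 was lower than NTC within every replicate number. The log2 fold change was -0.63 (SE 0.11), 1.55-fold lower, with an adjusted p of 0.000526. Within replicates 1, 2 and 3 the log2 ratio was -0.72, -0.40 and -0.76. Without the replicate 1 libraries it was -0.59, with an adjusted p of 0.00484, and without the block the adjusted p was 0.391.

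CD28, the main costimulatory receptor, had 57.8, 41.4 and 55.4 CPM under siRNA1, against 42.6, 37.0 and 44.3 CPM under NTC. The siRNA1 library of replicate 2 fell inside the NTC range and the other siRNA1 libraries lay above it. The log2 fold change was 0.31 (SE 0.07), 1.24-fold higher, with an adjusted p of 0.00453. Within replicates 1, 2 and 3 the log2 ratio was 0.44, 0.16 and 0.32. CD28 did not pass the test without the replicate 1 libraries (log2 0.24, adjusted p = 0.197), without the siRNA1 replicate 1 library alone (0.25, adjusted p = 0.0917), without the NTC replicate 1 library alone (0.26, adjusted p = 0.0615) or without the block (adjusted p = 0.503).

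SH2D1A, the adaptor SAP, had 154, 120 and 145 CPM under siRNA1, against 206, 139 and 182 CPM under NTC. The ranges overlapped only through the low replicate 2 library of NTC, and siRNA1 was lower within each replicate number. The log2 fold change was -0.32 (SE 0.06), 1.25-fold lower, with an adjusted p of 0.00126. Within replicates 1, 2 and 3 the log2 ratio was -0.42, -0.21 and -0.33. Without the replicate 1 libraries it was -0.27, with an adjusted p of 0.0986, and without the block the adjusted p was 0.514.

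The SLAM receptors, SLAMF6 and SLAMF1, had higher counts under siRNA1 in every library but did not pass the test. SLAMF1 had 21, 31 and 33 counts under siRNA1, against 11, 11 and 17 counts under NTC, a log2 fold change of 0.94 (SE 0.31) with an adjusted p of 0.052. SLAMF6 had 77, 69 and 88 counts under siRNA1, against 38, 41 and 59 counts under NTC, a log2 fold change of 0.56 (SE 0.20) with an adjusted p of 0.0722. On the CPM scale these were the 2 of 10 members whose labels did not overlap, against 15.8% of genes tested. Both passed when the filter on low counts was dropped (adjusted p of 0.0325 for SLAMF1 and 0.0482 for SLAMF6). SLAMF1 also passed without the NTC replicate 1 library (log2 1.15, adjusted p = 0.0473). Other settings moved them away from the threshold. Without siRNA1 replicate 2 the adjusted p was 0.341 for SLAMF1 and 0.428 for SLAMF6. Without the block it was 0.363 and 0.577, and by limma-voom 0.0769 and 0.106. Their low counts leave wide errors, as the bars of the fold-change plot show.

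CTLA4, the inhibitory receptor, had 26, 12 and 19 counts under siRNA1, against 10, 15 and 7 counts under NTC. Its log2 fold change of 0.58 had an SE of 0.37 and an adjusted p of 0.364, and its ranges overlapped. Its highest library, siRNA1 replicate 1, had 0.273 unscaled CPM with a 95% Clopper-Pearson interval of 0.179 to 0.401, which covers counting error only. ICOS, its neighbour, had 65.7, 66.3 and 60.4 CPM under siRNA1, against 77.4, 58.6 and 65.6 CPM under NTC, and its log2 fold change was -0.06 (SE 0.08, adjusted p = 0.705). Hence among the 3 neighbours on chromosome 2 only CD28 passed the test; the difference between CD28 and the other two was not tested. As a description, in each library the ratio of CD28 counts to ICOS counts was 0.880, 0.625 and 0.917 under siRNA1, against 0.550, 0.632 and 0.675 under NTC. The pair was chosen after the values were seen.

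The scavenger-type receptors CD5 and CD6 stayed near their NTC levels. CD5 had 167, 125 and 151 CPM under siRNA1, against 158, 141 and 147 CPM under NTC, a log2 fold change of -0.02 (SE 0.07, adjusted p = 0.915). CD6 had 100.4, 110 and 111 CPM under siRNA1, against 91.8, 109 and 104 CPM under NTC, a log2 fold change of 0.07 (SE 0.07, adjusted p = 0.568). CD96, the PVR-binding receptor, had 351, 294 and 305 CPM under siRNA1, against 331, 255 and 291 CPM under NTC, a log2 fold change of 0.12 (SE 0.06, adjusted p = 0.244). The ranges of all 3 overlapped, and a p that misses the threshold does not show that the levels were equal. CD96 was higher under siRNA1 within each replicate number, as CD6 was, while CD5 was higher in 2 of 3.

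**Figure D3:**
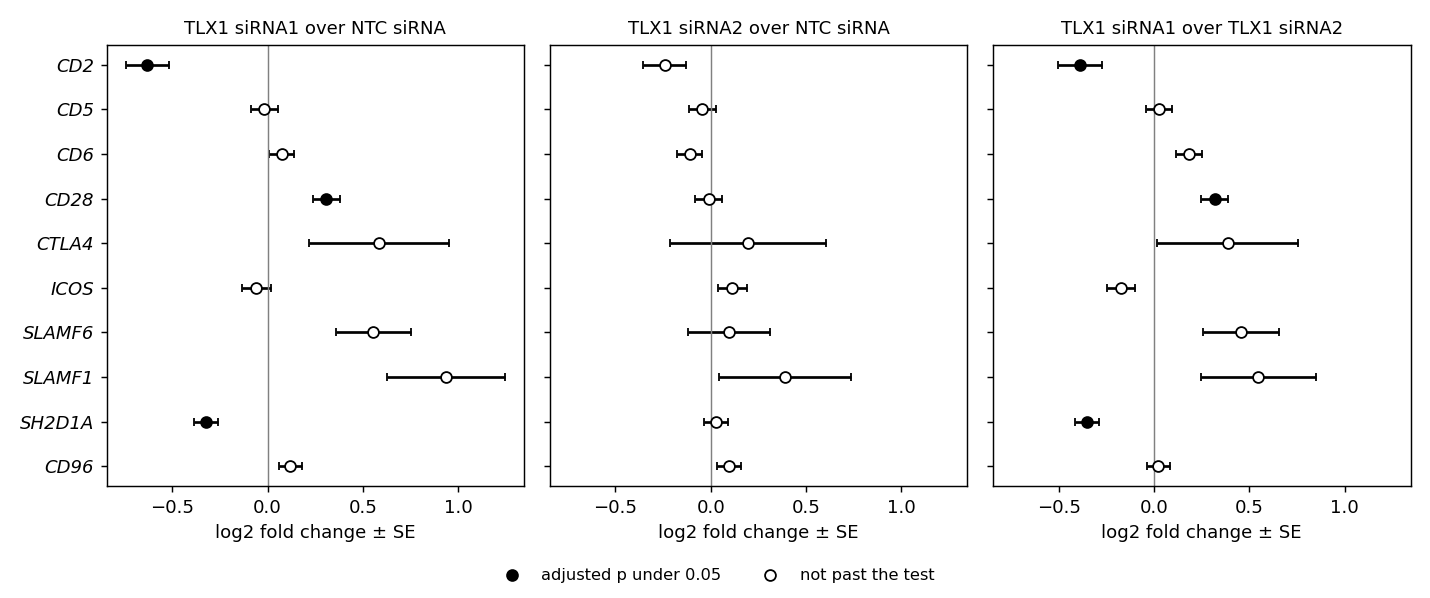
Log2 fold change with its standard error for the 10 genes (rows) in the 3 comparisons of labels (panels); filled points passed an adjusted p of 0.05. CD2, CD28 and SH2D1A passed for siRNA1 over NTC and for siRNA1 over siRNA2, none passed for siRNA2 over NTC, and the scarce genes SLAMF1, SLAMF6 and CTLA4 had the widest errors.

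The second question was whether libraries labelled siRNA2 differed from the same NTC libraries. No member passed, 0 of 10, against 0.151% of genes tested by edgeR, and 1 of 10 had an unadjusted p under 0.05, against 8.37%. Under all 20 alternatives, DESeq2 and limma-voom among them, 0 members passed, where 0 to 158 of all genes tested passed. With so few genes called, 0 members is close to the share of all genes. By edgeR without the replicate 1 libraries 0.496% of genes passed. For 3 of 10 members the 3 replicate numbers gave the same direction, against 25.9% of genes. CD2 had 3.09, 2.96 and 5.01 CPM under siRNA2, against 4.27, 3.07 and 5.79 CPM under NTC: siRNA2 was lower within each replicate number, the log2 fold change was -0.24 (SE 0.11) and the adjusted p was 0.583. CD28 had 43.9, 32.8 and 47.5 CPM under siRNA2, a log2 fold change over NTC of -0.01 (SE 0.07, adjusted p = 0.983). SH2D1A had 197, 143 and 196 CPM under siRNA2, a log2 fold change over NTC of 0.03 (SE 0.06, adjusted p = 0.944). The largest value was that of SLAMF1, at 0.39 (SE 0.35), from 11, 14 and 18 counts under siRNA2. The CPM of the labels did not overlap for 0 of 10 members, against 5.59% of genes. This comparison and the one before share the NTC libraries.

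The third comparison, siRNA1 against siRNA2, tests the difference between the labels directly. It shares the siRNA1 libraries with the first comparison. It passed for CD2, CD28 and SH2D1A, 3 of 10 members against 10.6% of genes tested, again with 1 higher (5.29% of genes) and 2 lower (5.27%). CD28 was higher under siRNA1 by a log2 fold change of 0.32 (SE 0.07, adjusted p = 0.00369), and the within-replicate log2 ratios were 0.40, 0.33 and 0.22. SH2D1A was lower under siRNA1 by a log2 fold change of -0.35 (SE 0.06, adjusted p = 0.000604), with ratios of -0.36, -0.26 and -0.44. CD2 was lower by -0.39 (SE 0.12, adjusted p = 0.0342), with ratios of -0.25, -0.34 and -0.55. An unadjusted p under 0.05 was found for 6 of 10 members, against 23.3% of genes, and the same direction in all 3 replicate numbers for 7 of 10, against 44.7%. Leaving out the replicate 1 libraries kept 1 of 10, SH2D1A (log2 -0.35, adjusted p = 0.0193), against 5.41% of genes. CD2 was then at -0.45 (adjusted p = 0.0717) and CD28 at 0.28 (adjusted p = 0.113). Without the siRNA1 replicate 1 library alone, CD2 was at -0.40 (adjusted p = 0.128) and CD28 at 0.26 (adjusted p = 0.0927). CD2 also failed without siRNA1 replicate 3 (-0.31, adjusted p = 0.230), siRNA2 replicate 2 (-0.35, adjusted p = 0.129) or siRNA2 replicate 3 (-0.34, adjusted p = 0.159). Without the block 0 of 10 passed, against 1.08% of genes, and the adjusted p was 0.704 for CD2, 0.522 for CD28 and 0.483 for SH2D1A.

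**Figure D4:**
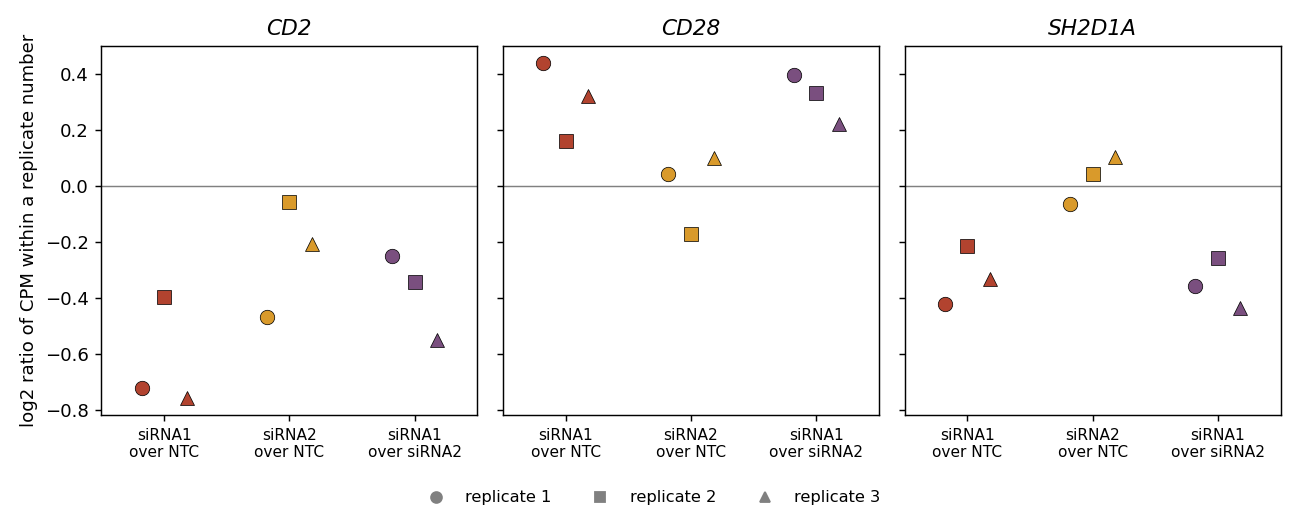
Log2 ratio of CPM within each replicate number for CD2, CD28 and SH2D1A (panels), for siRNA1 over NTC, siRNA2 over NTC and siRNA1 over siRNA2. All 3 siRNA1 ratios of CD2 and SH2D1A were below 0 and all 3 of CD28 above 0, while the siRNA2 over NTC ratios of CD28 and SH2D1A lay on both sides of 0.

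ICOS was the member whose siRNA1 and siRNA2 libraries did not overlap. It had 65.7, 66.3 and 60.4 CPM under siRNA1, against 72.4, 69.3 and 75.3 CPM under siRNA2. Its log2 fold change was -0.17 (SE 0.08) and did not pass (adjusted p = 0.164), and it was 1 non-overlapping member of 10, against 14.4% of genes. CD6 had 91.7, 104 and 86.4 CPM under siRNA2, and its siRNA1 over siRNA2 log2 fold change was 0.18 (SE 0.07, adjusted p = 0.0851).

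Within libraries, SH2D1A and CD96 could be set against each other because both were abundant. The ratio of SH2D1A counts to CD96 counts was 0.439, 0.407 and 0.474 under siRNA1, 0.590, 0.497 and 0.627 under siRNA2, and 0.624, 0.544 and 0.625 under NTC. All siRNA1 ratios lay below all others. This is a description, since the pair was chosen after its values were seen, and it shows unequal change, not which of the genes moved. The ratio of CD2 counts to CD5 counts was 0.0155, 0.0186 and 0.0227 under siRNA1, 0.0184, 0.0214 and 0.0390 under siRNA2, and 0.0270, 0.0219 and 0.0393 under NTC. The siRNA1 ratios overlapped those of both other labels.

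The members also differed by replicate number, which the labels do not explain. CD2, CD5, CD28, SLAMF6, SH2D1A and CD96 passed a test of replicate number, 6 of 10 members against 35.8% of genes tested. CD2 was higher in replicate 3 than in replicate 1, by 0.51 on the log2 scale, and SH2D1A was lower in replicate 2 than in replicate 1, by -0.47, with adjusted p-values of 8.61e-05 and 2.04e-05. CD28 had a replicate 2 over replicate 1 value of -0.37 (adjusted p = 0.000207). These differences were of the same order as those between labels, and no call of a member held without the block.

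Across the 9 libraries some members ran together, and the points share replicate numbers and labels. CD6 ran opposite to ICOS (Pearson r = -0.87) and to SH2D1A (r = -0.86). SH2D1A ran with CD96 at r = 0.52, and at r = 0.90 once the label means were removed. CD28 and SH2D1A had r = 0.18 overall and r = 0.88 within labels, so they ran together across replicate numbers although they moved oppositely by label. By the same measure on log2 CPM over the 9 libraries and 12553 genes of at least 1 CPM on average, the genes most like CD2 were AZI2 (r = 0.98), DNAJB1 (0.97) and CDCA7L (0.97), and those most like CD28 were LINC01336, PMS2P4 and OSTF1 (0.98 to 0.99). SH2D1A ran most with LETM2, KDM1B and UAP1 (0.98), CD96 with ARMC2, MOCS2 and TPM4 (0.98), CD6 with MXD3, LSP1 and ZNF707 (0.98), CD5 with SLC25A29 and WDR90 (0.95 to 0.96), and ICOS with BISPR, IDE and RSRC2 (0.95 to 0.96). With 9 points and so many genes, such values are the extremes of a search.

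A 7-letter word, GCAGTAC, which an earlier search of these libraries had found in the 3′ untranslated regions of lower genes, occurred in 1 of the 10 members, CD28. The site lies at chr2:203737259-203737285 on the plus strand (GRCh38, GENCODE 29): atcaaactcaGCAGTACttgggtgctg (word in capitals). CD28 was higher under siRNA1, whereas among genes searched the word was in 20.7% of 946 lower genes, 3.92% of 791 higher genes and 5.74% of 10664 genes that did not pass for siRNA1 over NTC. CD2 and SH2D1A, which were lower, did not hold it. The word came from the same libraries and these shares are a description.

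A list of 17 ligand genes was read next, which covers other costimulatory and inhibitory receptors besides the members, and 10 were tested. For siRNA1 over NTC 2 were higher and 2 lower, against 11.4% of genes in either direction. ALCAM, the ligand of CD6, was at 2.90 ± 0.818 CPM under siRNA1 and 5.75 ± 0.909 under NTC (SD, n = 3 each), a log2 fold change of -0.999 (SE 0.11, adjusted p = 1.37e-06). CD72, proposed as a CD5 ligand, was at 7.97 ± 1.10 CPM under siRNA1 and 4.88 ± 0.513 under NTC, a log2 fold change of 0.71 (SE 0.10, adjusted p = 4.12e-05). CD48, which binds CD2 and CD244, was lower by -0.42 (SE 0.09, adjusted p = 0.00192), and TNFRSF14 was higher by 0.30 (SE 0.08, adjusted p = 0.0138). CD58, the human CD2 ligand, was at 16.4 CPM under siRNA1 and 14.8 under NTC and did not pass (log2 0.15, adjusted p = 0.216). ALCAM and CD72 also passed without the block, with adjusted p-values of 0.0495 and 0.0337, but CD48 (0.387) and TNFRSF14 (0.313) did not. Without the replicate 1 libraries ALCAM and CD72 passed, and CD48 (0.0730) and TNFRSF14 (0.0958) did not. These were 2 of 10 in each setting, against 1.28% of genes without the block and 6.07% without replicate 1.

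Other SLAM family genes and SAP adaptors gave 3 higher and 1 lower among 6 tested of 9 listed, against 5.48% of genes higher and 5.93% lower. SLAMF7 had a log2 fold change of 1.15 (SE 0.37, adjusted p = 0.0441) at 0.271 CPM under siRNA1 and 0.119 under NTC. CD244 was higher by 0.33 (SE 0.08, adjusted p = 0.00526) and CD84 by 0.26 (SE 0.07, adjusted p = 0.0131), while CD48, counted in this list too, was lower. None of these passed without the block, against 1.28% of genes, or without the replicate 1 libraries, against 6.07%. FYN, the kinase that SAP recruits, had a log2 fold change of 0.03 (adjusted p = 0.794).

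Among 16 tested of 24 other costimulatory and inhibitory receptors, 4 were higher and 1 lower, against 5.48% and 5.93% of genes. CD7, an early T-lineage receptor, was at 504 ± 45.0 CPM under siRNA1 and 350 ± 40.2 under NTC (SD, n = 3 each), a log2 fold change of 0.53 (SE 0.08, adjusted p = 5.46e-05). TNFRSF4 (OX40) was higher by 1.11 (SE 0.22, adjusted p = 0.00114) and CD27 by 0.59 (SE 0.18, adjusted p = 0.0413), while TNFRSF8 (CD30) was lower by -0.86 (SE 0.20, adjusted p = 0.00575). These genes were scarce. TNFRSF4 was at 1.05 ± 0.936 CPM under siRNA1 and 0.464 ± 0.351 under NTC. CD27 was at 1.07 ± 0.300 and 0.717 ± 0.270 CPM, and TNFRSF8 at 0.389 ± 0.111 and 0.704 ± 0.0926 CPM. The remaining call was PDCD1. None of the 5 passed without the block, against 1.28% of genes. CD7, TNFRSF4 and TNFRSF8 passed without the replicate 1 libraries, against 6.07% of genes.

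Of 32 genes that signal beneath CD28, CD2, CD5 and CD6, 9 were higher and 2 lower, against 5.48% and 5.93% of genes. The listed genes were well expressed. Among genes with at least 1 CPM in 3 libraries, 1034 of 12808 were higher and 1071 lower. The list was chosen with earlier results of these data known. Without the block 1 of 32 passed, PRKCQ, against 1.28% of genes. Without the replicate 1 libraries 4 of 32 passed, against 6.07% of genes: PRKCQ, LCP2, INPP5D and SH2D2A. PRKCQ, the protein kinase C that acts beneath CD28, stood at 81.0 ± 3.59 CPM under siRNA1 and 47.5 ± 7.23 under NTC (SD, n = 3 each), a log2 fold change of 0.78 (SE 0.08, adjusted p = 1.07e-06), and an adjusted p of 0.00589 without the block. SH2D2A, an adaptor, was higher by 0.58 (SE 0.10, adjusted p = 0.000251) and LCP2, the SLP-76 adaptor, by 0.35 (SE 0.07, adjusted p = 0.00251). The phosphatase gene INPP5D was lower by -0.34 (SE 0.06, adjusted p = 0.000653) and the kinase gene PDPK1 by -0.21 (SE 0.07, adjusted p = 0.0402). Without the block the adjusted p was 0.412 for SH2D2A, 0.136 for LCP2, 0.178 for INPP5D and 0.486 for PDPK1, and PDPK1 was at 0.249 without the replicate 1 libraries. CD2AP and CD2BP2, which bind the CD2 tail, did not pass, with log2 values of -0.06 and -0.04. Of 8 tested genes of CTLA4 membrane traffic, 0 of 8 passed, against 11.4% of genes. In siRNA1 over siRNA2 the counts of higher and lower genes were 1 and 2 of 10 ligands, 2 and 1 of 6 SLAM genes, 2 and 1 of 16 receptors, 5 and 2 of 32 signalling genes and 0 of 8 traffic genes, against 10.6% of genes. Without the block 1 ligand gene passed there and none of the other lists, against 1.08% of genes. Without the replicate 1 libraries 4 ligand, 2 SLAM, 2 receptor, 2 signalling and 0 traffic genes passed, against 5.41% of genes. In siRNA2 over NTC no listed gene passed, against 0.151% of genes. Without the replicate 1 libraries 1 did, PRKCQ (adjusted p = 0.0187), against 0.496% of genes.

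**Figure D5:**
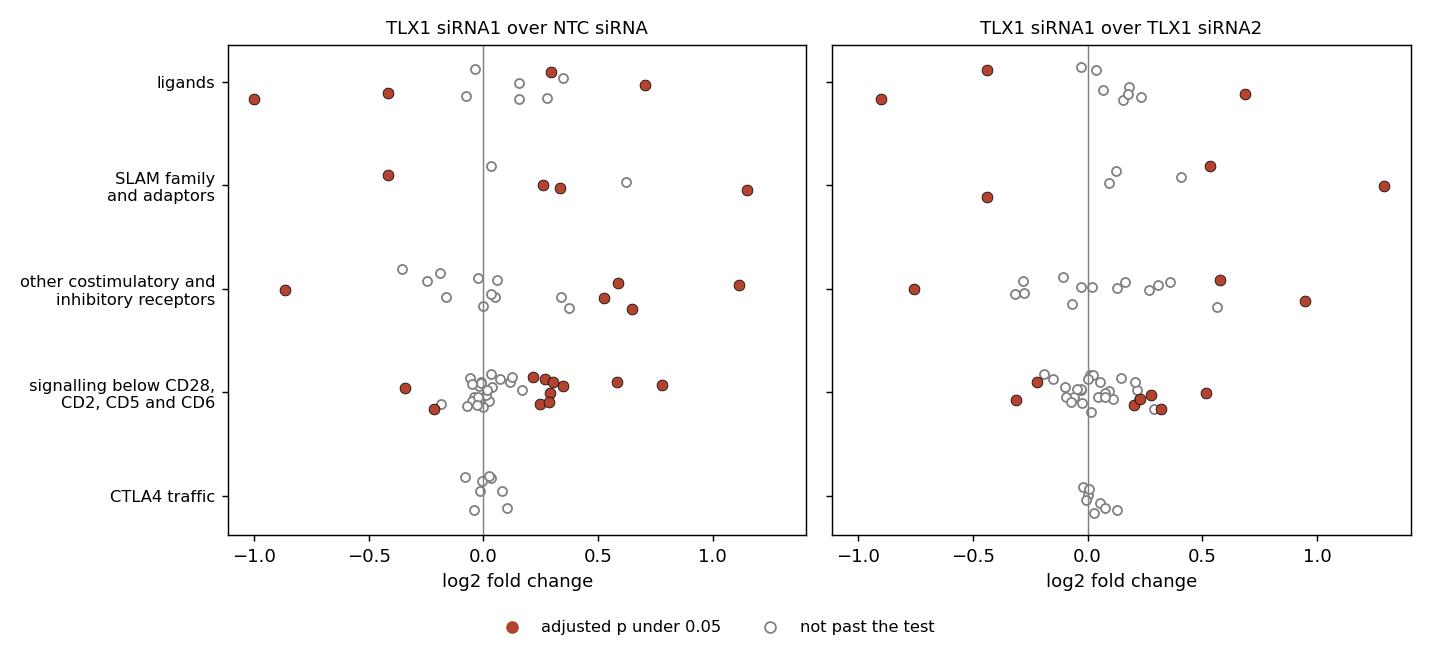
Log2 fold change of each tested gene in the 5 pathway lists (rows), with 1 point per gene, for siRNA1 over NTC and siRNA1 over siRNA2. Filled points passed an adjusted p of 0.05: ALCAM at -0.999 was the lowest for siRNA1 over NTC and SLAMF7 at 1.15 the highest.

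Markers of other cell types were read beside these results. Natural killer (NK) markers summed to 292 to 334 CPM under siRNA1, 179 to 246 under siRNA2 and 200.1 to 227 under NTC, nearly all from NKG7. For siRNA1 over NTC 1 of 2 tested was higher, against 5.48% of genes. The defining NK genes NCAM1, KLRF1 and NCR1 were at 0. B cell markers summed to 22.9 to 28.1 CPM under siRNA1, 20.0 to 27.7 under siRNA2 and 25.8 to 33.1 under NTC, and none passed in any comparison. Myeloid markers stayed at or below 1.33 CPM, erythroid and megakaryocyte markers at or below 0.290 CPM, and epithelial and fibroblast markers at or below 0.207 CPM. For siRNA1 over NTC 1 of 4 tested myeloid markers was lower, against 5.93% of genes. Of the 12 T-lineage markers 1 was higher (CD7) and 5 lower, CD2 among them, for siRNA1 over NTC, against 5.48% and 5.93% of genes. Without the block neither CD7 (adjusted p = 0.176) nor CD2 (0.391) passed, and values without the block are not given for the other lower markers. For siRNA1 over siRNA2, 2 of the 12 were higher and 5 lower, against 5.29% and 5.27% of genes. The part of these marker levels in the results for CD2, CD28 and SH2D1A was not tested.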

How the data were processed

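Gene counts of 9 libraries were the deposited whole-number counts made by the authors, 1 file per library, with an unstranded column and 2 stranded columns. The unstranded column was used, since the kit does not mark strand per the labels' protocols. Per the submitters' processing notes, the build was GRCh38; no aligner or annotation is named in the sources used here. The 4 summary lines were left out; genes held 75.5% to 77.6% of reads.

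Identifiers were matched to GENCODE 29. The main test was edgeR 4.0.16 (R 4.3.3; quasi-likelihood, TMM factors of 0.975 to 1.04, Benjamini-Hochberg) on the filtered genes (filterByExpr, minimum count 10), over all 9 libraries with label and replicate number as terms. SE was derived from the fold change and the F statistic, as |log2FC|/√F. The block was kept because deviations of same-numbered libraries correlated at 0.383 to 0.623 in all 9 pairs, against -0.445 to 0.0693 in other pairs. None of the 9 pairs of libraries with the same label agreed within sampling noise. The 10 genes and the lists were chosen with earlier results of these data known. The genes named were all 10, TLX1, up to 3 listed genes each way by adjusted p, and the 3 genes most like each member of at least 1 CPM, of which 1 is not reported here; PDCD1, CD58, FYN, CD2AP, CD2BP2, STAG2 and TLX3 were named after their values were seen. Alternatives were RLE factors, library size alone, other filters, DESeq2 1.42.0, limma-voom 3.58.1, the strand columns summed, the compared labels only, single libraries or all replicate 1 libraries left out, and no block; no block without replicate 1 was chosen after seeing the data. The script was tested on simulated data drawn without a difference between replicate numbers, so that test does not cover the use of the block.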

Additional observations from a re-analysis of the deposited data

Results flagged for a closer look

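For 3 genes the effects of the siRNA1 and siRNA2 labels differed by a direct test of the difference (edgeR quasi-likelihood, replicate block, Benjamini-Hochberg over all genes). CD2 was lower under siRNA1 than under siRNA2 by a log2 difference of -0.39 (SE 0.12, adjusted p = 0.0342), and lower in 3 of 3 replicate numbers. CD28 was higher under siRNA1 by 0.32 (SE 0.07, adjusted p = 0.00369), and higher in 3 of 3. SH2D1A was lower under siRNA1 by -0.35 (SE 0.06, adjusted p = 0.000604), and lower in 3 of 3. None of the 3 passed without the block (adjusted p = 0.704 for CD2, 0.522 for CD28 and 0.483 for SH2D1A). With single libraries left out, SH2D1A passed each time. CD28 did not pass without siRNA1 replicate 1 (0.26, adjusted p = 0.0927). CD2 did not pass without siRNA1 replicate 1 (-0.40), siRNA1 replicate 3 (-0.31), siRNA2 replicate 2 (-0.35) or siRNA2 replicate 3 (-0.34), with adjusted p-values of 0.128 to 0.230.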

How the results depend on the processing

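Without the replicate block, siRNA1 over NTC called 238 genes, siRNA2 over NTC 0 and siRNA1 over siRNA2 201, against 2117, 28 and 1958 with the numbers as pairs, and 0 members were called in any of the 3. Without all replicate 1 libraries the counts were 1139, 93 and 1015 genes, and 1 member (CD2) and 1 member (SH2D1A) in the comparisons with siRNA1. Without both the block and replicate 1, they were 75, 0 and 33 genes and 0 members. With single libraries left out, genes called ran from 1163 to 2979, 4 to 108 and 980 to 2387, and members from 2 to 3 for siRNA1 over NTC and 1 to 3 for siRNA1 over siRNA2. With no filter beyond 1 count, siRNA1 over NTC called 5 of 10 members, SLAMF6 and SLAMF1 added, against 2137 of 35601 genes. For siRNA2 over NTC that setting called 158 genes, DESeq2 105, the strand columns summed 51 and the compared labels only 105. In siRNA2 over NTC 0 members were called under all 20 alternatives. The calls of CD2 and SH2D1A for siRNA1 over NTC, and of SH2D1A for siRNA1 over siRNA2, held with each single library left out. Signs turned only where no call was made. For siRNA1 over NTC, ICOS was 0.031 without replicate 1 (0.029 without the block too), and -0.15 to 0.039 with single libraries left out, and CD5 was then -0.083 to 0.057. For siRNA2 over NTC, CD28 was 0.0039 without the block, 0.00075 with library size alone and -0.063 to 0.067 with single libraries left out; SLAMF6 was -0.050 without replicate 1 (-0.046 without the block too) and -0.078 to 0.28; CD5 was -0.10 to 0.040, CTLA4 -0.18 to 0.63 and SH2D1A -0.014 to 0.075. For siRNA1 over siRNA2, CD96 was -0.0078 to 0.049 and CD5 -0.060 to 0.10. The cause of these changes was not tested. Counts of 7 to 33 per library limit CTLA4 and SLAMF1.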
